A study of Oryza sativa with 2 samples.

Results

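The 8 genes described here encode ammonium and nitrate transporters of rice, 6 of the AMT family (AMT1-2, AMT2-2, AMT2-3, AMT3-1, AMT3-2 and AMT3-3) and 2 of the NRT2 family (NRT2.2 and NRT2.3). They were taken by name, with 1 named probe set each, out of 17905 genes that had a probe set of their own on the Affymetrix rice GeneChip. Every one of the 8 probe sets was tied to a single gene by the platform annotation, and the gene table lists the member's name among that gene's synonyms. The table gives both names AMT1-2 and AMT1-3 to LOC4330008 and also to another locus. LOC4330008 is called AMT1-2 here because it also carries the name OsAMT1;2.

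Leaves were taken from untreated rice seedlings, 6 weeks old, kept in a greenhouse at 28 °C with 14 h of light and 10 h of dark. The control was 9311, an indica rice variety (genotype label 9311), and the other group was 9311 carrying LRK1 (genotype label LRK1 transgenic 9311, titled LRK1 060615). LRK1 itself was not matched to a probe set by name, so the genotype labels, on which every direction below rests, were not checked against the transgene. LRK1 is the name of a rice gene for a receptor-like kinase with leucine-rich repeats. The sources used here do not say which promoter drives it or how many independent lines were sampled. Each genotype was represented by 10 plants and 1 array. No difference below could be checked in a replicate, none carries a p-value, and the precision is limited by having 1 array a group.

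Plants take up nitrogen from soil mainly as nitrate and ammonium, and rice in flooded soil relies strongly on ammonium. AMT proteins carry ammonium across membranes, with the AMT1 subfamily known for high-affinity uptake in roots, while the AMT2 and AMT3 subfamilies are more distant from AMT1 and less studied. NRT2 proteins carry nitrate with high affinity, and several of them work with a partner protein, NAR2. Nitrate is then reduced to ammonium, which enters amino acids through glutamine synthetase and glutamate synthase.

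Every value below is a log2 signal of a probe set on an array, or a difference of these. Signals near background are noisy on that scale, so a floor was set at the median of all 57258 probe sets other than array controls, a log2 signal of 5.40. Calls of higher or lower needed signals that reached the floor in both genotypes and a difference of 2-fold or more. Where a single array reached the floor, a call needed a log2 signal of 6.40 there, which is 2 times the floor. Each ratio is LRK1 transgenic over control. Signals of different probe sets are not set against each other, because probes differ in how well they bind. The genes are therefore not ordered by level, and with 2 arrays no gene could be sought with a similar pattern across samples.

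The arrays were not on the same level. The median ratio was 0.23 over all probe sets other than controls, 0.08 over those at the floor on both arrays, and 0.34 over 63 bacterial spike probe sets, so small positive ratios are read against these shifts. For 6 pairs of rice housekeeping probe sets that all reached the floor, the 3' signal was divided by the 5' signal. The control array had the larger quotient in 6 of 6. These pairs are not independent, since several are of actin and some share a probe set. The quotients were 13.35 (control) and 9.34 (transgenic) in an actin pair and 9.45 and 6.95 in another. They were 3.87 and 2.16 in a Gapdh pair, and 2.05 and 1.62 in a Cyph pair. The gap was small in a further actin pair (16.45, 16.24) and in ubiquitin (0.83, 0.78), whose quotient was below 1 on both arrays. The part of RNA integrity in the differences was not tested. All 4 leaf markers with a probe set were far above the floor, with ratios from 0.46 to 1.40. The highest was of the marker GLO1, whose other probe set had 11.10 (control) and 10.90 (transgenic), a ratio of -0.20. CAB2R, a chlorophyll-binding antenna protein gene, had log2 signals of 15.70 (control) and 16.24 (transgenic). The median ratio was 0.45 over all probe sets with mean log2 signals from 14.5 to 15.5. No rise of the leaf markers is therefore read from their ratios. The flower and shoot apex markers MADS1, MADS3 and OSH1 were below the floor on both arrays, OSH1 being listed at 0 on the control array, while MADS16, a floral homeotic gene, had 9.49 and 10.07. The root marker CASP1, of the Casparian strip, went from 4.23, under the floor, to 6.72 with 1 of its 3 probe sets, and below it on both arrays with the other two. The part of other tissue in the transporter values was not tested. In whole leaves, fewer cells of a type and less RNA per cell cannot be told apart.

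Of the 8 transporter genes, AMT1-2 was higher and AMT2-3 lower on the transgenic array. The other 6 passed neither rule, and among these AMT2-2 reached the floor only on the transgenic array. In all, 7 of the 8 reached the floor on both arrays and none was below it on both. Over all probe sets at the floor on both arrays, 8.36% were higher and 9.95% lower, together 18.3%, so 2 calls among 7 genes are read as near the background. Members had a median ratio of 0.41, against 0.12 over all probe sets that reached the floor at all, signals below the floor being set to it in both. The 6 positive and 2 negative ratios compare with 58.5% positive ratios over all probe sets, which include those below the floor on both arrays. At the floor on both arrays, 71.4% of the 7 members and 54.7% of all probe sets had a positive ratio.

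**Figure D1:**
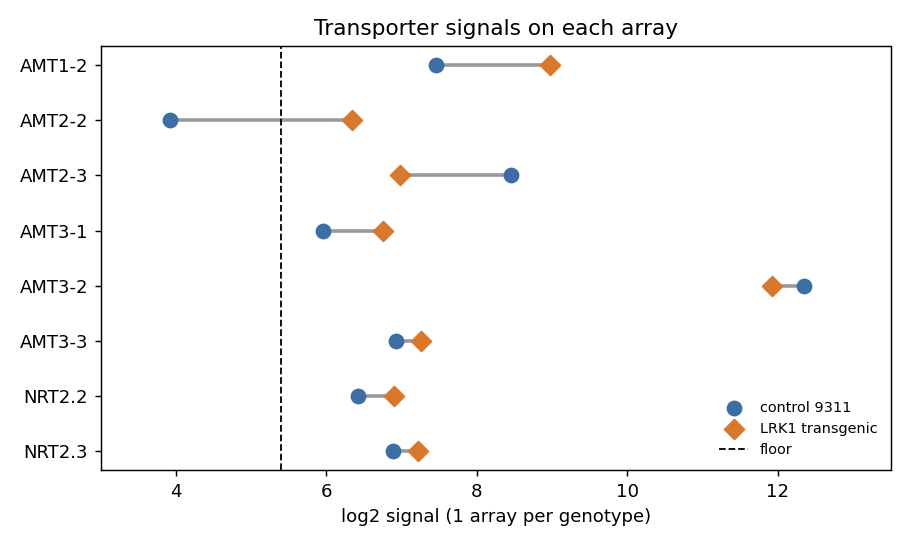
Log2 signal (x axis) of the 8 transporter probe sets on the control 9311 array (circles) and the LRK1 transgenic array (diamonds), 1 array per genotype, with the floor of 5.40 as a dashed line. AMT1-2 lies to the right and AMT2-3 to the left on the transgenic array, and AMT2-2 is the gene with a signal below the floor.

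AMT1-2 (LOC4330008), a member of the high-affinity AMT1 subfamily that is known in rice mainly from roots, had a log2 signal of 7.46 in the control and 8.97 in the transgenic plants. These are linear signals of 177 and 501, so the gene was 2.84-fold higher on the transgenic array, a log2 ratio of 1.51. Both signals were well above the floor, by 2.07 and 3.57 on the log2 scale. Among the 24426 probe sets at the floor on both arrays, 563 had a ratio at least as high. Where the mean log2 signal was between 7.5 and 8.5, as for AMT1-2, the central 90% of ratios ran from -1.76 to 1.30, and AMT1-2 lay above that range. AMT1-2 was called higher under each of the 5 other scalings between the arrays, with ratios from 1.17, when the arrays were centred on the spikes, to 1.58 after quantile normalization. Of the 3 probe sets of the root marker CASP1, the one ending in _x_at was above the floor on the transgenic array only, the others went from 5.07 to 1.64 and from 2.62 to 1.57, all below the floor, and the part of root tissue in the AMT1-2 value was not tested. The AMT1-2 probe set was the gene's sole one, so no second probe set could be set beside it.

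AMT2-3 (LOC4327433), of the AMT2 subfamily, had a log2 signal of 8.45 in the control and 6.98 in the transgenic plants. With linear signals of 350 and 127 it was 2.77-fold lower on the transgenic array, a log2 ratio of -1.47. Of the probe sets at the floor on both arrays, 1117 had a ratio at most as low. Its mean signal falls in the same range as that of AMT1-2, and its ratio lay inside the central 90% of ratios there, near the lower end. The call held under the 5 other scalings, with ratios from -1.81 on spike centring to -1.44 after quantile normalization. Again the gene had 1 probe set.

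AMT2-2 (LOC4327434), from the same subfamily, had a log2 signal of 3.91 in the control, below the floor, and 6.33 in the transgenic plants. Against the floor it was at least 1.92-fold higher on the transgenic array as deposited, just short of the 2-fold rule. With signals below the floor set to it, the log2 ratio ran from 0.75 to 0.94 over the scalings, short of that rule under each. Of 5637 probe sets that reached the floor on the transgenic array only, 17.4% passed that rule. The call therefore turned on the floor and on the size rule. With the floor at the 25th percentile of all signals both arrays counted as measured, and the log2 ratio was 2.42.

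AMT2-2 and AMT2-3 are close neighbours in the japonica gene table, with 2 genes without a probe set between them. Their ratios had opposite signs as deposited and under the 5 other scalings, although AMT2-2 passed no call. On the outer sides of the pair, the nearest genes with a probe set had ratios of 0.41 (LOC4327432) and -0.57 (LOC4327435), and neither was called. Around all 8 members there were 14 such neighbour genes other than members, of which 1 was called, LOC4334716 beside AMT3-2, lower with a ratio of -1.08. Another 3 were below the floor on both arrays. Of all genes at the floor on both arrays 17.9% were called, so nothing is read from this count of neighbours. AMT1-2 has as its direct neighbour a gene taken here as AMT1-3, with no probe set of its own, so AMT1-3 was not analysed here.

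The 3 genes of the AMT3 subfamily were not called. AMT3-2 (LOC4334717) had a log2 signal of 12.35 in the control and 11.92 in the transgenic plants, linear signals of 5211 and 3882. It was 1.34-fold lower, with ratios from -0.76 to -0.42 over the scalings. This probe set stood 6.95 log2 units above the floor in the control, and its ratio was at the lower edge of the central 50% of ratios at its signal (-0.43 to 0.50).

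AMT3-1 (LOC4324937) had a log2 signal of 5.95 in the control and 6.76 in the transgenic plants, a ratio of 0.80 and a difference of 1.75-fold. It was the sole member with a second probe set, which had 5.91 and 5.79, a ratio of -0.12. The probe sets of AMT3-1 thus gave ratios of opposite sign, 0.93 apart on the log2 scale, with all signals close to the floor. AMT3-3 (LOC4329628) had 6.92 and 7.26, a ratio of 0.34, which was 0.01 when the arrays were centred on the spikes.

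A disagreement of that size was not unusual among dim probe sets. In 572 genes with at least 2 probe sets at the floor on both arrays and a mean log2 signal under 9, the ratios of the brighter pair differed with an SD of 0.79 across genes, which are not independent replicates. Of 128 such pairs with the brighter probe set past 2-fold, 103 (80.5%) had the other in the same direction, and 49 had it past 2-fold too. Of probe sets in that range of signal 20.2% were called in either direction. Apart from AMT2-2 and the bright AMT3-2, all members fall in this range.

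Both nitrate transporter genes had small positive ratios. NRT2.2 (LOC4328052), a high-affinity nitrate transporter, had log2 signals of 6.42 (control) and 6.90 (transgenic), a ratio of 0.49. NRT2.3 (LOC4324249), known in rice for moving nitrate from root to shoot, had 6.89 and 7.22, a ratio of 0.33. With spike centring these ratios became 0.15 and -0.0049, so the sign of NRT2.3 depended on the scaling. Both ratios were below the SD of 0.79 given above for probe sets of a gene. That SD describes a difference between paired ratios and not a single ratio, so it is not a like measure. NRT2.1, the direct neighbour of NRT2.2 in the gene table and known to encode a nearly identical protein, had no probe set of its own. The NRT2.2 probe set ends in _x_at, a suffix for probes that can bind several transcripts, and whether it also binds NRT2.1 RNA was not tested. The probe sets of NRT2.3, AMT3-1 and AMT3-2 carry the same suffix, and the 4 others, among them both called ones, do not.

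**Figure D2:**
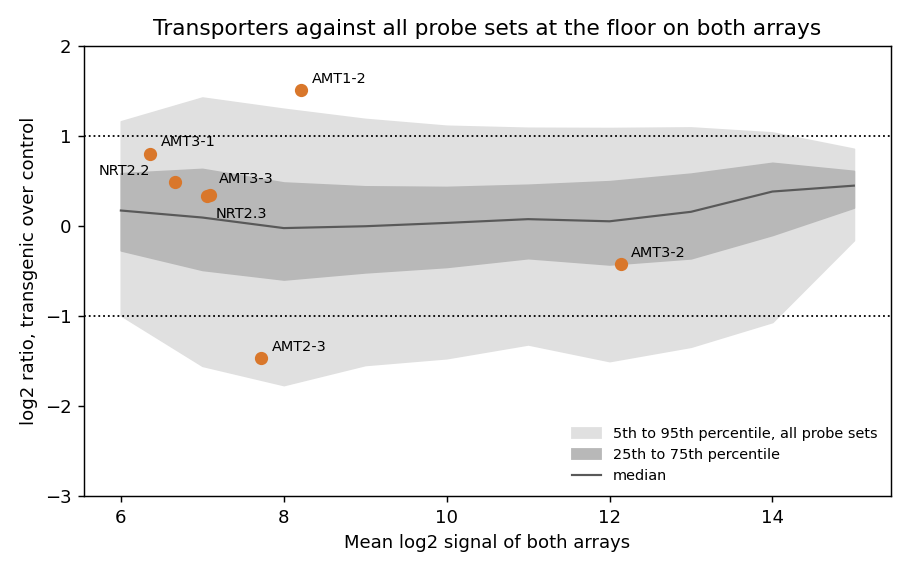
Log2 ratio, transgenic over control (y axis), against the mean log2 signal of both arrays (x axis) for the 7 transporters at the floor on both arrays (points). Grey bands show the percentiles of the ratio over all probe sets at the floor on both arrays, in steps of 1 log2 unit, and dotted lines the 2-fold rule. AMT1-2 lies above the outer band, and AMT2-3 lies past the 2-fold line but inside it.

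**Figure D3:**
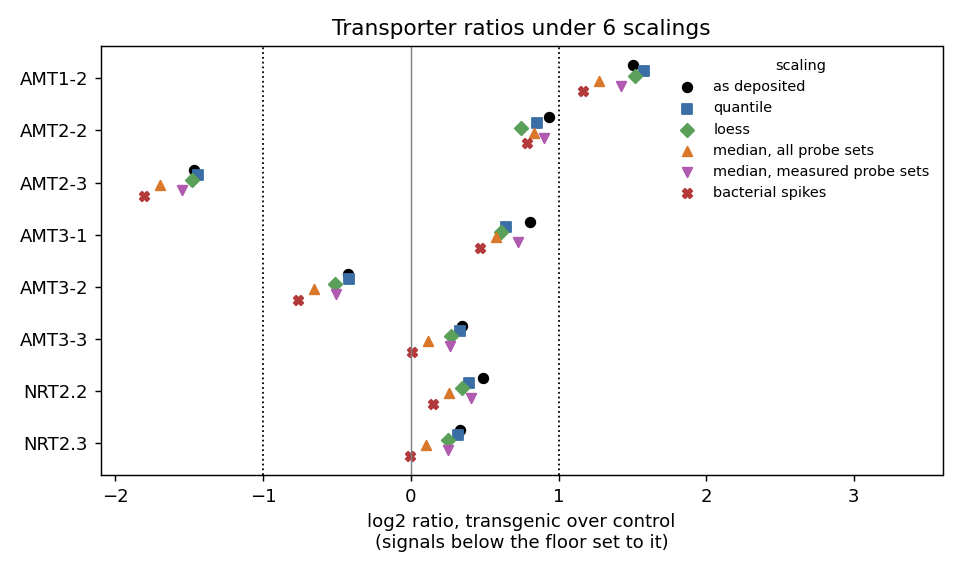
Log2 ratio, transgenic over control (x axis), of the 8 transporters as deposited and under the 5 other scalings between the arrays, with signals below the floor set to it and dotted lines at 2-fold. AMT1-2 stays to the right of 1 and AMT2-3 to the left of -1 under each scaling, while NRT2.3 and AMT3-3 lie at 0 with spike centring.

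The other AMT genes with a probe set were AMT1-1 and AMT2-1. AMT1-1 (LOC4336365), a high-affinity ammonium transporter gene active in rice roots and shoots, went from a log2 signal of 13.39 on the control array to 13.82, a ratio of 0.43, and its second probe set gave 0.12. AMT2-1 (LOC4339064) had 8.07 and 7.53, a ratio of -0.53. Together the 8 AMT genes held 5 positive and 3 negative ratios, with 1 higher and 1 lower call. Over all genes at the floor on both arrays 17.9% were called, and 52.1% of all genes had a positive ratio, so nothing is read from these counts. NAR2.2 (LOC4336175), named for the NRT2 partner proteins, had 7.09 and 7.19, a ratio of 0.10 that turned to -0.24 with spike centring, while NAR2.1 had no probe set.

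Beyond the transporters, 44 names or name stems of nitrogen genes were searched in the gene table, of which the stem NLP matched 3 genes, and 19 genes other than the members had a probe set. Among these, 2 were higher, 2 lower, 1 above the floor on the transgenic array only and 1 on the control array only. The calls at the floor on both arrays were 4 of 16 genes, where 17.9% of all genes were called. Of the 3 at the floor on 1 array only, 2 were called, where 24.3% of all such genes were. The list median was 0.36, against 0.03 over all genes that reached the floor at all, signals below the floor being set to it. That is not a like comparison, because the list holds several very bright genes. Over all probe sets with mean log2 signals from 14.5 to 15.5, the median ratio was 0.45. The list median is the ratio of GLN1-2, which was 0.018 with spike centring, so no shift of the list is read from it.

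Genes of nitrate reduction and of the glutamine synthetase and glutamate synthase pathway were not called. NIA1 (LOC4345795), a nitrate reductase gene, had log2 signals of 14.63 (control) and 15.25 (transgenic), a ratio of 0.61. GLN2 (LOC4337272), of the chloroplast glutamine synthetase, had 14.52 and 15.16, a ratio of 0.64, and its dimmer second probe set passed 2-fold at 1.03. Among the cytosolic glutamine synthetase genes, GLN1-1 had a ratio of 0.72 and GLN1-2 of 0.36, while GLN1-3 lay close to the floor, at 5.58 in the control and 4.89, below the floor, in the transgenic plants. Fd-GOGAT (LOC4344164), the ferredoxin-dependent glutamate synthase gene, had 14.61 and 15.32, a ratio of 0.70. Its other probe sets gave 0.85 and 0.93. Over all probe sets with mean log2 signals from 14.5 to 15.5, the median ratio was 0.45 and the 75th percentile 0.61, so NIA1 lay at that percentile and GLN2 and Fd-GOGAT above it. The exception among assimilation genes was GDH3 (LOC4330164), of glutamate dehydrogenase, with 9.19 on the control array and 3.66, below the floor, on the transgenic array. GDH1 had 9.83 on both arrays, and GDH2 a ratio of -0.81 that passed 2-fold with centring on the median of all probe sets (-1.04) and on the spikes (-1.15). A dimmer GDH2 probe set, ending in _x_at, had a ratio of -0.46, and another was below the floor on both arrays.

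Of 5 regulators at the floor on both arrays 3 were called, against 17.9% of all genes. GRF4, at the floor on the transgenic array only, was called too, against 24.3% of all genes at the floor on 1 array. With so few genes these counts are a description. NLP1 (LOC4331508), a transcription factor gene of the family that responds to nitrate, went from 8.24 on the control array to 9.73, 2.82-fold higher. NLP3 (LOC4327787), of the same family, went from 11.39 to 12.51, 2.17-fold higher, but fell short of 2-fold when centred on the median of all probe sets or on the spikes. NLP2 had a ratio of 0.59, and GLB, also listed as a regulator and not called, had one of -0.05. NIGT1 (LOC4329184), named as a nitrate-inducible repressor, went from 8.17 to 6.99, 2.26-fold lower. GRF4 (LOC4330436), a growth-regulating factor gene linked to nitrogen assimilation in rice, went from 4.49, below the floor, to 6.82, at least 2.69-fold higher. DUR3 (LOC4349520), a high-affinity urea transporter gene, was the only transporter called among the other nitrogen genes. It had 8.28 and 6.81, 2.76-fold lower, on a probe set ending in _s_at that can bind several transcripts. All but NLP3 of these called genes kept their call under the 5 other scalings.

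**Figure D4:**
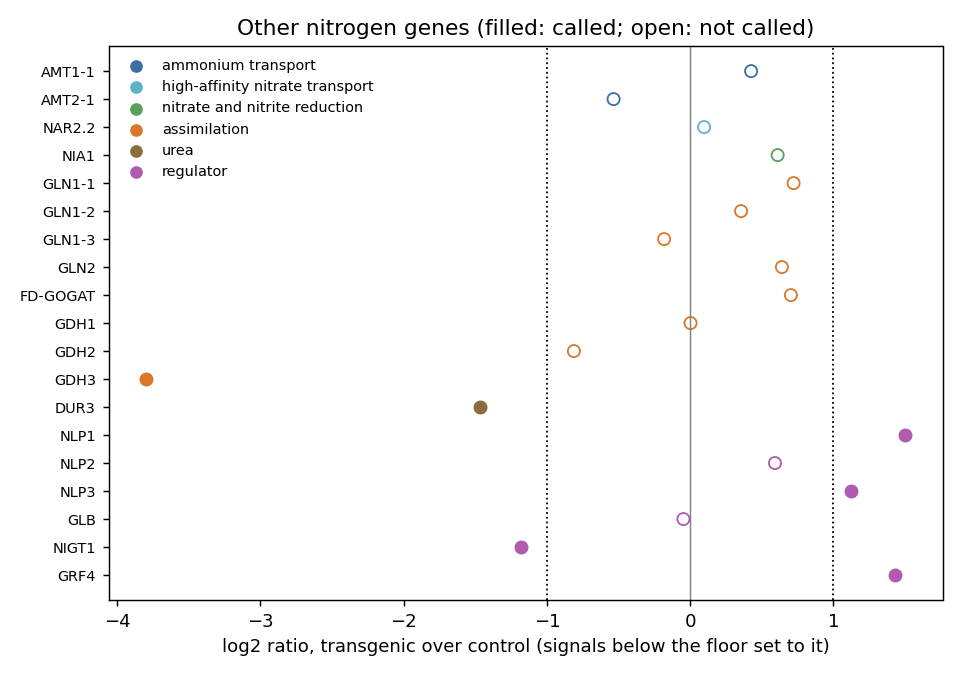
Log2 ratio, transgenic over control (x axis), of 19 other nitrogen genes with a probe set, coloured by role, with signals below the floor set to it, filled points for called genes and dotted lines at 2-fold. GDH3 lies furthest left, DUR3 and NIGT1 past -1, and NLP1, GRF4 and NLP3 past 1.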

How the data were processed

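The deposited table holds a log2 signal for each probe set on each array, and the submitters' processing notes name MAS5 as the tool that made it. The log2 scale was read from the values, which reach 16.24. Its version, scaling target and lower limit are not stated. Per the labels' protocols, RNA was labelled with a 3' IVT kit, which copies from the 3' end, so RNA integrity can change signals.

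Groups came from the genotype labels. Of 57381 probe sets, 123 array controls were left out. Genes were named through the platform annotation and the gene table of assembly ASM3414082v1 (Oryza sativa Japonica), which paired 22436 probe sets with 1 gene. No coordinates of it are printed, and no sequence was used. For genes other than the members, the probe set with the highest mean signal was used. The floor, the 2-fold rule and the counts were computed with Python 3.11.15, numpy 2.4.6 and pandas 2.3.3, loess with statsmodels 0.14.6. The call rule was tested on simulated data.

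The members and lists were chosen with earlier results of these data known. Named genes are all members, and of the other nitrogen genes those called, the brightest of each role and, chosen after their values were seen, some uncalled ones (GLN1-1, GLN1-2, GLN1-3, GLN2, GDH1, GDH2, NLP2, GLB, AMT2-1). Neighbour genes were looked up after the members' values were seen. Alternatives were another floor, size rule, scaling, pseudocount or choice of probe sets.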

Additional observations from a re-analysis of the deposited data

How the results depend on the processing

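No paired analysis was possible because each genotype has 1 array. The calls of AMT1-2 and AMT2-3 held under every alternative run except the floor at the 75th percentile of all signals, where 1 signal of each counted as below the floor and the log2 ratios were 0.68 and -0.17. That floor left no value for the 5 members below it on both arrays, 0 members called in either direction, and a member median of -0.17. With the floor at the 25th percentile, 2 members were higher, AMT2-2 being added at 2.42. With a 1.5-fold rule, 3 were, AMT2-2 (0.94) and AMT3-1 (0.80) being added. NRT2.3 turned to -0.0049 with spike centring. The member median of 0.41 was 0.19 when centred on the median of all probe sets, 0.077 when centred on the spikes, and 0.64 without the 4 probe sets that can bind several transcripts.

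Over all probe sets, 2042 were higher and 2430 lower. The counts were 5774 and 4577 with the 25th percentile floor, 779 and 1062 with the 75th, and 5394 and 4692 with a 1.5-fold rule. Higher calls fell to 1210 when centred on the median of all probe sets, and on the spikes there were 967 higher and 4043 lower, so that higher calls made up 45.7% as deposited and 19.3% with spike centring. Of the other nitrogen genes, 8 were higher with a 1.5-fold rule, against 3, and 0 lower with the 75th percentile floor, against 3. Centring on the median of probe sets at the floor on both arrays was chosen after seeing the data. Dim probe sets limit what these arrays show, since 7 of the 8 members lie within 3.57 log2 units of the floor where they reach it.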
